A study of Mus musculus with 37 samples.

Results

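Imprinted genes are expressed mainly from the copy inherited from the mother or from the father. The 37 genes described here were taken as a fixed list of symbols: H19, Igf2, Igf2r, Airn, Mest, Copg2, Klf14, Peg3, Usp29, Zim1, Peg10, Sgce, Ppp1r9a, Asb4, Dlk1, Meg3, Rian, Mirg, Rtl1, Dio3, Cdkn1c, Kcnq1ot1, Phlda2, Slc22a18, Ascl2, Grb10, Plagl1, Zdbf2, Nnat, Ndn, Magel2, Snrpn, Peg12, Impact, Gnas, H13 and Zrsr1. All 37 symbols were found among the 25239 genes of the count table. They fall into 16 clusters or single loci, and by background knowledge 16 of them are expressed from the maternal copy, 20 from the paternal copy and 1 (Gnas) from different copies for different transcripts.

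RNA was sequenced from mouse hearts dissected at E10.5, when the looped heart tube is forming chambers, in 37 libraries. Wild-type hearts (Nipbl +/+; Isl1 +/+) gave 10 libraries, and 9 libraries each came from Isl1_het hearts (Isl1 +/-), Nipbl_het hearts (Nipbl +/-) and double_het hearts (Nipbl +/-; Isl1 +/-). Nipbl loads the cohesin ring onto chromosomes, and Isl1 is a LIM-homeodomain factor of heart progenitors. The fathers were Stra8-iCre; Nipbl Flox/+, with a Cre expressed in male germ cells, so the null Nipbl allele (FIN) came through sperm, and the alternative sperm allele, Flox, works as wild type. The mothers were Isl1 Cre/+, with Cre placed in an Isl1 allele that is thereby lost. Both losses were therefore heterozygous and present throughout the embryo, and the labels do not say which embryos also inherited the Stra8-iCre transgene or the Flox allele. Whether Cre from the Isl1 allele acted on a Flox allele in Isl1_het hearts was not tested. The labels also carry a set number (the digit after the letters IVF, which they do not spell out): set 1 holds 3 wild-type and 3 Isl1_het libraries, set 2 holds 9 libraries, set 5 holds 14, set 6 holds 7, and set 7 holds only double_het replicate 2.

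In an imprinted cluster, a control region methylated in the egg or the sperm decides which parental copy each gene is read from. Many clusters pair protein-coding genes of one copy with a long noncoding RNA of the other copy. The control regions work through DNA methylation, and at some of them the insulator protein CTCF and cohesin also take part. Several proteins made from imprinted genes set fetal growth: Igf2 promotes it, while Igf2r, Grb10 and Cdkn1c restrain it. Bulk RNA gives the summed level of both copies, so which copy the reads came from was not measured.

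Library depth ran from 23.36 M to 50.97 M counts. Nipbl was at 60.02 ± 10.1 CPM (counts scaled to library size; SD, n = 10) in wild-type, 61.5 ± 5.88 (n = 9) in Isl1_het, 39.3 ± 13.8 (n = 9) in Nipbl_het and 38.1 ± 7.41 (n = 9) in double_het hearts. The library labelled Nipbl_het replicate 2 went against its label with 72.4 CPM. Isl1 was at 7.37 ± 2.24 CPM in wild-type and 6.28 ± 1.76 CPM in Isl1_het hearts (adjusted p = 0.877 with edgeR), so its level does not check the Isl1 labels. It was at 13.0 ± 2.82 CPM in Nipbl_het and 9.50 ± 3.51 CPM in double_het hearts, and rose with Nipbl loss averaged over both Isl1 genotypes (log2 change 0.65, SE 0.15, adjusted p = 0.00655). Defining heart markers were present: Tnnt2, Actc1, Nkx2-5 and Ttn summed to between 12450 and 19447 CPM. In bulk tissue, fewer cells of a type and less RNA per cell cannot be told apart. A library labelled double_het replicate 3 also stood apart, in the Dlk1-Dio3 cluster. Values of imprinted genes that moved most with either of these libraries are given with and without it.

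The promoters of 30 of the 37 genes were matched in a RefSeq table of the GRCm38.p6 build that gives 250 bases before and 50 bases after each annotated start. H19, Klf14, Peg10, Sgce, Rtl1, Cdkn1c and Impact were not matched. Printed here, 5′ to 3′ on the gene's strand with each CpG dinucleotide in capitals, are the promoters of Meg3 and Rian, whose transcripts were nearly missing from 1 library, of their paternally expressed neighbour Dlk1, and of Mest, the paternally expressed neighbour of Klf14. The CpG dinucleotide is the site that carries the methyl mark.
Meg3, chr12:109540746-109541045, + strand: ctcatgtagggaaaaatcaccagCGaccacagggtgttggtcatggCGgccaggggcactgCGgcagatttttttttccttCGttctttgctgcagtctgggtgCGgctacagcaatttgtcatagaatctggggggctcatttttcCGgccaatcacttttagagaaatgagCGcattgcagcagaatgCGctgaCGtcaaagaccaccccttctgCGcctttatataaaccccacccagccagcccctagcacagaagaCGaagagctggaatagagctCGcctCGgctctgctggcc
Rian, chr12:109603695-109603994, + strand: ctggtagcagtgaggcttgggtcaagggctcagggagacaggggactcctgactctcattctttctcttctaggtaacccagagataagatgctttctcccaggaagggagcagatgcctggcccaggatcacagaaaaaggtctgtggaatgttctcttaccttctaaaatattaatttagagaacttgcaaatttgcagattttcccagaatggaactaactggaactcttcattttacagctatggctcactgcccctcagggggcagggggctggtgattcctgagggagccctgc
Dlk1, chr12:109452573-109452872, + strand: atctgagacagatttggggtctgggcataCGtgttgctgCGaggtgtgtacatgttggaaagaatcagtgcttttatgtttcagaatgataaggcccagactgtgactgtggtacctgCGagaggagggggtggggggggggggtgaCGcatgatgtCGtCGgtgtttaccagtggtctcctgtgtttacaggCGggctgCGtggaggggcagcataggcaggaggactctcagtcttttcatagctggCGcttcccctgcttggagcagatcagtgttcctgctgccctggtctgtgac
Mest, chr6:30737800-30738099, + strand: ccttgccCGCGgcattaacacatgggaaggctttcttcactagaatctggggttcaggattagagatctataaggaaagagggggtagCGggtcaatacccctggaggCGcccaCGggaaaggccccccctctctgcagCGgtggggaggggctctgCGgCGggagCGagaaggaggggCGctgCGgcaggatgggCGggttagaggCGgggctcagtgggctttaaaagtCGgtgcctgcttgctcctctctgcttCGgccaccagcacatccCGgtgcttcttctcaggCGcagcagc
The Mest window holds 17 CpG, the Meg3 window 13, the Dlk1 window 9 and the Rian window 0, against a median of 13 over the 46 windows of listed genes and of 7 over all 32851 promoters of the table. The table holds 3 windows for Mest, of which the one shown has the most CpG, and 2 for Meg3, of which the first is shown. A Mest window starting 3 bases further on also holds 17 CpG, the remaining Mest window 8 and the other Meg3 window 1. The hexamer TGCCGC, searched on both strands, holds a CpG and is the sequence that ZFP57, a protein that protects methylated imprints, recognises. It occurred 2 times in the Mest window shown and 1 time in the Meg3 window shown, and was not found in the Dlk1 or Rian windows, in the Mest window with 8 CpG or in the other Meg3 window. It was present in 11 of the 46 windows of listed genes (23.9%) and in 11.6% of all promoters. Of the 11, 2 are the overlapping Mest windows. By gene, 10 of the 30 listed genes with a window held it in at least 1 window, beside 13.1% of all genes in the table. No comparison was made with promoters of like CpG content. A match is a description of letters and not of binding.

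Imprinted genes stood among the most abundant transcripts of these hearts. H19, the maternally expressed noncoding RNA of the H19-Igf2 cluster, had the highest mean CPM of all genes, 12627, which was 1.26% of all counts. Per kilobase of annotated exon it ranked 5 of 24366 genes with 5133 CPM per kb, followed among the listed genes by Cdkn1c (p57, an inhibitor of cyclin-dependent kinases) with 1654, Igf2 with 1102 and Mest (a hydrolase-like protein) with 810. Igf2r, the receptor that clears IGF2, had 218 CPM per kb, Gnas, the stimulatory G protein subunit, had 139, and Grb10, an adaptor that dampens insulin and IGF receptors, had 127. At the lower end, Rtl1 (derived from a retrotransposon) had 0.0416 CPM per kb. Dio3, the deiodinase that inactivates thyroid hormone, was covered by 0 to 30 counts per library and Snrpn, a splicing protein, by 0 to 6 counts; both were removed by the filter on low counts, which left 35 genes for testing. Snrpn shares exons with Snurf on the same strand, so its level is uncertain, and so is that of Igf2, which shares 3694 of its 5723 exon bases with Igf2os and Gm49394.

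The other leading genes of each locus lay between these extremes. Zinc-finger gene Peg3 was at 16.3 CPM per kb, Peg10 (a retrotransposon-derived protein) at 22.3, Dlk1 (a Notch-like membrane protein) at 18.0, Plagl1 (a zinc-finger factor) at 36.97 and Zdbf2 at 1.84. Nnat, a membrane proteolipid, was at 55.9 CPM per kb, Ndn (necdin) at 40.5, Impact, a regulator of translation, at 8.20, H13, a signal peptide peptidase, at 9.78, and Zrsr1, a splicing factor relative, at 2.47. Among noncoding RNAs other than H19, the CPM per kb was 10.1 for Rian, 8.16 for Meg3, 3.88 for Airn, 0.930 for Mirg and 0.267 for Kcnq1ot1.

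Averaged over both Isl1 genotypes, 4 of the 35 tested genes changed with labelled loss of 1 Nipbl allele. In this comparison of 18 libraries labelled Nipbl +/- (among them Nipbl_het replicate 2, with its label in doubt) against 19 others, 4.02% of all 15046 genes passed an adjusted p of 0.05 (2.67% higher and 1.36% lower), beside 11.4% of the tested imprinted genes. Klf14 and Cdkn1c, both maternally expressed, fell, and Peg10 and Sgce, paternally expressed neighbours, rose. The median log2 change over the 35 genes was 0.0064, beside 0.0053 over all genes tested, with 19 genes above 0 and 16 below. By parental copy, 2 of 16 maternally expressed and 2 of 18 paternally expressed genes passed, with medians of 0.022 and -0.0062. All tests of levels are edgeR quasi-likelihood tests with genotype and set number in the model and Benjamini-Hochberg adjustment over all genes.

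**Figure D1:**
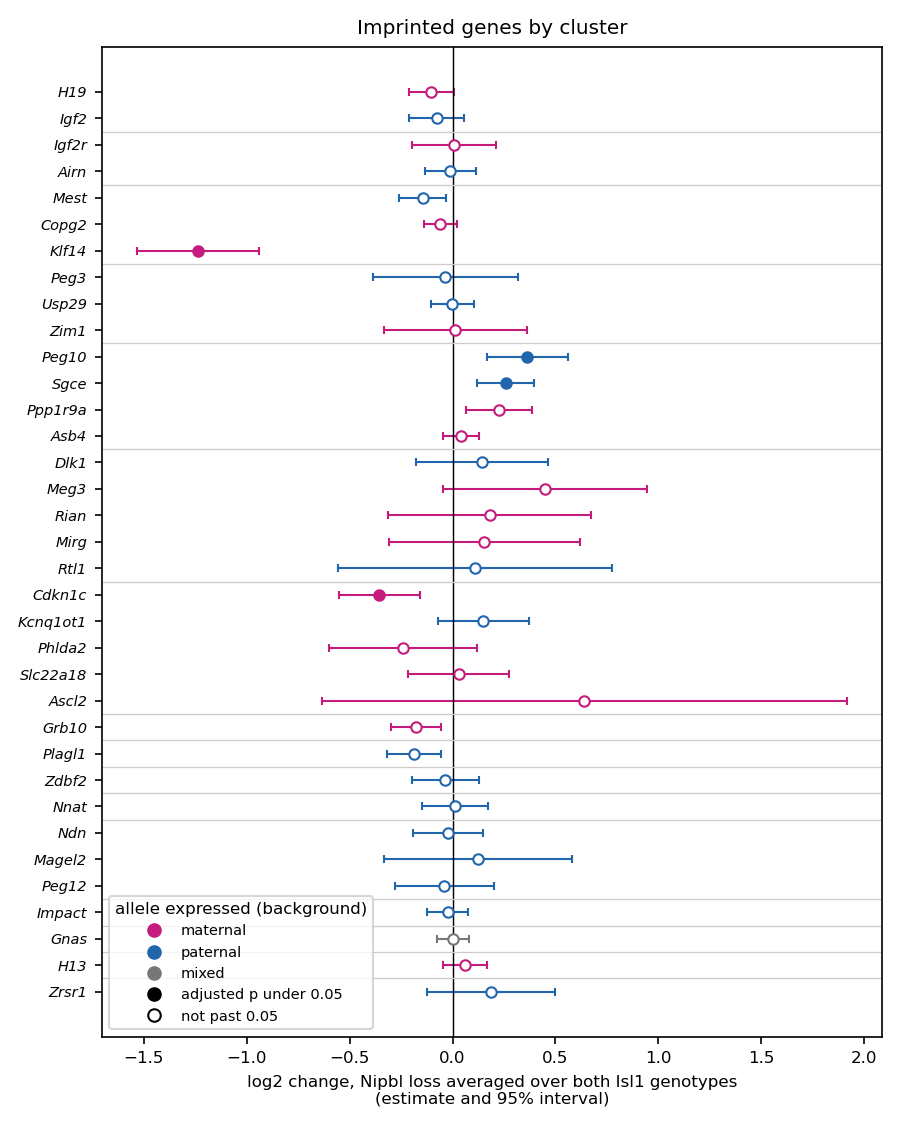
Log2 change with Nipbl loss, averaged over both Isl1 genotypes, for the 35 tested imprinted genes, with 95% intervals; grey lines separate clusters, colours give the parental copy known to be expressed, and filled points passed an adjusted p of 0.05. Klf14 lies apart from the other genes at -1.23, and Ascl2 has the widest interval.

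Klf14, a single-exon Krüppel-like transcription factor gene (chr6:30956023-30959078, GRCm38, minus strand, no exon shared with another gene), showed the largest fall. Its level was 2.01 to 4.00 CPM in wild-type hearts (median 3.05) and 1.99 to 3.76 CPM in Isl1_het hearts (median 2.78). It was 0.492 to 1.63 CPM in Nipbl_het hearts (median 1.32) and 0.867 to 1.88 CPM in double_het hearts (median 1.31). All 17 libraries labelled Nipbl +/- other than the library labelled Nipbl_het replicate 2 lay below every one of the 19 others. That library had the lowest value of all. Klf14 is a low-level gene, with 15 to 149 counts per library.

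The log2 change of Klf14 averaged over both Isl1 genotypes was -1.23 (SE 0.15, adjusted p = 1.15e-06), or 0.425-fold. Against the shared wild-type libraries, it was -1.37 (SE 0.19, adjusted p = 9.60e-05) in Nipbl_het hearts and -1.19 (SE 0.20, adjusted p = 5.30e-04) in double_het hearts. In double_het against Isl1_het it was -1.10 (SE 0.20, adjusted p = 0.00291). Its groups are not those of Nipbl_het against wild-type. Set terms and spread were estimated from all libraries, so these comparisons are not independent. The call in double_het against Isl1_het was lost without set 2 (log2 change -0.94, adjusted p = 0.124) and without set 5 (-1.27, adjusted p = 0.142). Within sets 2, 5 and 6 the pooled difference was -1.28, -1.12 and -1.48. It is the mean log2 CPM of the set's libraries labelled Nipbl +/- minus that of its others. Isl1 genotypes did not have equal weight in it. Double_het replicate 2 is alone in its set and is fitted exactly, so it added nothing to these values. Its cluster neighbours Mest and Copg2 (a coatomer subunit) did not pass in this comparison, with log2 changes of -0.14 (SE 0.06, adjusted p = 0.170) and -0.06 (SE 0.04, adjusted p = 0.549). Reads of these 2 genes cannot be told apart over the 912 bases of exon they share on opposite strands unless counting used strand, which is not given in the sources used here.

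**Figure D2:**
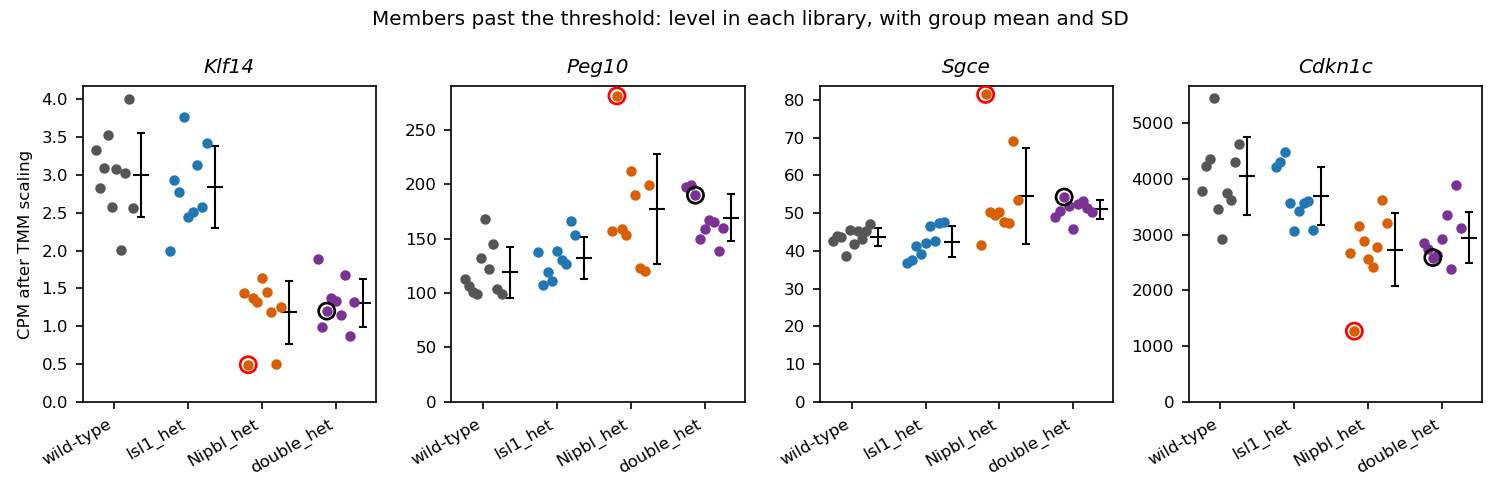
CPM of Klf14, Peg10, Sgce and Cdkn1c in every library (points) by genotype, with the group mean and SD (bars); the red ring marks the library labelled Nipbl_het replicate 2 and the black ring double_het replicate 3. The Nipbl_het and double_het points of Klf14 lie below all wild-type and Isl1_het points, while the groups overlap for the other 3 genes.

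Peg10 and Sgce lie head to head on chromosome 6 and are expressed from the paternal copy. Sgce, which encodes epsilon-sarcoglycan of the membrane complex that anchors muscle cells, was at 38.7 to 47.0 CPM in wild-type hearts (median 43.9) and 36.9 to 47.7 CPM in Isl1_het hearts (median 42.0). It was at 41.5 to 81.4 CPM in Nipbl_het hearts (median 50.3) and 45.8 to 54.3 CPM in double_het hearts (median 51.3). Of the 18 libraries labelled Nipbl +/-, 15 lay above every one of the 19 others, or 14 of 17 without the library labelled Nipbl_het replicate 2, which was the highest. The averaged log2 change was 0.26 (SE 0.07, adjusted p = 0.0235). The pooled difference within sets 2, 5 and 6 was 0.25, 0.23 and 0.28. The averaged call was lost in 4 of 50 alternative settings, 3 of which left out set 1, 2 or 6 (adjusted p of 0.0546, 0.252 and 0.0855). In the single comparison of Nipbl_het with wild-type it was 0.28 (SE 0.09, adjusted p = 0.106).

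Peg10 was at 98.7 to 168 CPM in wild-type hearts (median 110) and 107 to 166 CPM in Isl1_het hearts (median 130). It was at 120 to 281 CPM in Nipbl_het hearts (median 159) and 138 to 199 CPM in double_het hearts (median 165), so the groups overlapped. Against wild-type, Nipbl_het hearts had a log2 change of 0.49 (SE 0.13, adjusted p = 0.0335), a call that was lost in 13 of 50 alternative settings (log2 changes of 0.31 to 0.49 in those). Averaged over both Isl1 genotypes it was 0.36 (SE 0.10, adjusted p = 0.0254). In double_het against wild-type it was 0.38 (SE 0.13, adjusted p = 0.143). Within sets 2 and 5 the pooled difference was 0.52 and 0.48, and within set 6 it was -0.08. The averaged call was lost in 9 of 50 alternative settings. Without set 5 the log2 change was 0.26 (adjusted p = 0.297) and without set 2 it was 0.29 (adjusted p = 0.366). It was also lost without wild-type replicate 4 (adjusted p = 0.0545), Isl1_het replicate 6 (0.0530), Isl1_het replicate 7 (0.0536), Nipbl_het replicate 9 (0.0535) or double_het replicate 6 (0.0506). Of the other genes of this cluster, Ppp1r9a (neurabin, which binds actin and protein phosphatase 1) had an averaged log2 change of 0.22 (SE 0.08, adjusted p = 0.117) and Asb4, an ankyrin-repeat protein of ubiquitin ligases, one of 0.04 (SE 0.04, adjusted p = 0.746).

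Cdkn1c was at 2927 to 5454 CPM in wild-type hearts (median 4001) and 3056 to 4481 CPM in Isl1_het hearts (median 3570). It was at 1269 to 3615 CPM in Nipbl_het hearts (median 2780) and 2383 to 3888 CPM in double_het hearts (median 2850). Of the 18 libraries labelled Nipbl +/-, 12 lay below every one of the others, or 11 of 17 without the library labelled Nipbl_het replicate 2, which was the lowest. Against wild-type, Nipbl_het hearts had a log2 change of -0.47 (SE 0.13, adjusted p = 0.0464). Averaged over both Isl1 genotypes it was -0.36 (SE 0.10, adjusted p = 0.0279). Within sets 2, 5 and 6 the pooled difference was -0.17, -0.59 and -0.21. The call in Nipbl_het against wild-type was lost in 36 of 50 alternative settings, without double_het replicate 3 among them (adjusted p = 0.0510), and the averaged call was lost in 7 of 50. Without set 5 the averaged log2 change was -0.17 (adjusted p = 0.366) and without set 2 it was -0.44 (adjusted p = 0.1002). It was also lost without wild-type replicate 4 (adjusted p = 0.0708), Isl1_het replicate 6 (0.0579), Isl1_het replicate 7 (0.0601) or double_het replicate 7 (0.0540). In the same cluster, the paternally expressed antisense RNA Kcnq1ot1 had an averaged log2 change of 0.15 (SE 0.11, adjusted p = 0.589). Phlda2, a maternally expressed restraint on placental growth, had one of -0.24 (SE 0.18, adjusted p = 0.588) and the transporter gene Slc22a18 one of 0.03 (SE 0.12, adjusted p = 0.947).

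The other 31 tested genes did not pass in the averaged comparison. In the H19-Igf2 cluster, H19 was at 12934 ± 2011 CPM (SD, n = 10) in wild-type, 14502 ± 2435 (n = 9) in Isl1_het, 11199 ± 1996 (n = 9) in Nipbl_het and 11839 ± 1601 (n = 9) in double_het hearts, with overlapping groups. Its averaged log2 change with Nipbl loss was -0.10 (SE 0.05, adjusted p = 0.379), beside -0.08 (SE 0.07, adjusted p = 0.662) for Igf2. Igf2r (0.01) and its antisense RNA Airn (-0.01) had values near 0. Plagl1 had -0.19 (SE 0.07, adjusted p = 0.114). Peg3 had -0.04 with a 95% interval from -0.39 to 0.32, beside 0.01 for Zim1 and -0.0010 for Usp29, a deubiquitinase gene. Ascl2 had 0.64 with an SE of 0.63. That value turned negative without the library labelled Nipbl_het replicate 2, where Ascl2 was far above its level in any other library: -0.34 (SE 0.35, adjusted p = 0.697 with edgeR). Among other paternally expressed genes, log2 changes were -0.04 for Zdbf2, 0.01 for Nnat, -0.02 for Ndn, 0.12 for Magel2, -0.04 for Peg12, -0.02 for Impact and 0.19 for Zrsr1. Without the library labelled Nipbl_het replicate 2, Zrsr1 had 0.03 (SE 0.06), Magel2 0.20 (SE 0.19), Ndn 0.02 (SE 0.05) and Peg12 0.02 (SE 0.05). Gnas had 4.46e-04 and H13 0.06. In the single comparison of Nipbl_het with wild-type, Mest was at 2143 to 3243 CPM (median 3024) against 2627 to 3744 CPM (median 3468) and missed the threshold (-0.26, SE 0.07, adjusted p = 0.0619).

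Some markers of heart cell types moved with Nipbl loss in the averaged comparison, in which 4.02% of all genes tested passed. Of the ventricular markers Myl2, Myh7, Irx4, Hey2 and Nppa, 1 of 5 fell (Irx4, log2 change -0.36, SE 0.09, adjusted p = 0.0174). Their sum was 10644 to 16705 CPM in wild-type hearts (median 14091), 10266 to 14374 CPM in Isl1_het hearts (median 12549), 10061 to 13326 CPM in Nipbl_het hearts (median 10902) and 9568 to 14635 CPM in double_het hearts (median 12437). Of the epicardial markers Wt1, Tbx18, Upk3b and Tcf21, 2 of 4 rose: Wt1 (0.42, SE 0.06, adjusted p = 8.28e-06) and Upk3b (0.31, SE 0.09, adjusted p = 0.0419). Their sum was 201 to 359 CPM in wild-type, 236 to 428 CPM in Isl1_het, 314 to 487 CPM in Nipbl_het and 405 to 533 CPM in double_het hearts. Of 4 atrial markers 1 rose (Sln, 1.37, SE 0.31, adjusted p = 0.00588), and of 3 tested markers of neural crest and neurons 1 rose (Tubb3, 0.49, SE 0.13, adjusted p = 0.0234). Of the markers of all cardiomyocytes (4 tested), endocardium and endothelium (5), cushion mesenchyme (4), liver and foregut endoderm (2) and yolk sac and trophoblast (2), 0 passed with edgeR or DESeq2, with 0, 1, 0, 1 and 0 at an unadjusted p under 0.05. None of these markers was at 0 in every library. Their part in the changes of Klf14, Cdkn1c, Peg10 and Sgce was not tested.

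By single comparison, 3 of 35 genes passed in Nipbl_het against wild-type (Klf14, Peg10 and Cdkn1c), where 1.71% of all genes passed. In double_het against wild-type 1 of 35 passed (Klf14), with 2.60% of all genes, and in double_het against Isl1_het 1 of 35 (Klf14), with 0.957%. Without the library labelled Nipbl_het replicate 2 the counts were 4, 4 and 1, where 2.72%, 5.57% and 2.40% of all genes passed, and 6 in the averaged comparison, where 6.93% did. Grb10 was among the added calls, with log2 changes of -0.22 (SE 0.06, adjusted p = 0.0343) in Nipbl_het and -0.23 (SE 0.06, adjusted p = 0.0173) in double_het against wild-type. With all libraries its averaged log2 change was -0.18 (SE 0.06, adjusted p = 0.0936).

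No tested imprinted gene passed in the comparisons for loss of 1 Isl1 allele. In Isl1_het against wild-type, 0 of 35 genes passed, as did 0% of all genes, with edgeR. At an unadjusted p under 0.05 there were 886 genes in all and 2 imprinted genes, the neighbours H19 (log2 change 0.16, SE 0.07, adjusted p = 0.827) and Igf2 (0.18, SE 0.08, adjusted p = 0.835). Averaged over both Nipbl genotypes, 0 of 35 passed with edgeR and 0.173% of all genes did, with 1831 genes in all and 3 of the 35 at an unadjusted p under 0.05. In double_het against Nipbl_het, 0 of 35 passed and 0% of all genes with edgeR, with 1355 genes in all and 4 of the 35 at an unadjusted p under 0.05. For the interaction, which asks whether both losses together depart from the sum of their log2 changes, 0 of 35 passed and 0% of all genes with edgeR, with 411 genes in all and 1 of the 35 (Mest) at an unadjusted p under 0.05. DESeq2 also called 0 of the 35 in each of these 4 comparisons, and 11, 115, 0 and 0 genes in all.

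In the Dlk1-Dio3 cluster on chromosome 12, double_het replicate 3 carried almost none of the maternally expressed noncoding RNAs. Meg3, Rian (host of small nucleolar RNAs) and Mirg (host of microRNAs) are transcribed in the same direction from the maternal copy, while Dlk1, Rtl1 and Dio3 are expressed from the paternal copy. In double_het replicate 3, Meg3 had 118 counts (3.08 CPM), against 91.4 to 315 CPM (median 146) in the other 36 libraries. Rian had 109 counts (2.84 CPM), against 138 to 264 CPM (median 194). Mirg had 5 counts (0.130 CPM), against 4.48 to 10.8 CPM (median 6.67). The 3 RNAs were thus at 2.11%, 1.46% and 1.96% of the median of the other libraries.

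The paternally expressed genes Dlk1 and Rtl1 were high in the same library, and Dio3 was not. Dlk1 was at 208 CPM in double_het replicate 3, against 52.0 to 231 CPM (median 97.8) in the others, where only Nipbl_het replicate 9 was higher. Rtl1 was at 0.730 CPM, against 0.0546 to 0.780 CPM (median 0.227), again with only Nipbl_het replicate 9 higher; its counts were few, 28 in this library. In Nipbl_het replicate 9 Meg3 and Rian were not low, at 244 and 207 CPM. Dio3 had 3 counts in double_het replicate 3, or 0.0782 CPM against a median of 0.0840 CPM in the others.

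Genes on both sides of the cluster were not low in this library. Of the genes reaching into the 500 kb on either side with a median of at least 1 CPM in the other libraries, Wdr25 and Begain before Dlk1 and Ppp2r5c, Dync1h1, Hsp90aa1 and Wdr20 after Dio3 all lay inside the range of the other libraries, at 101% to 119% of their median. Among the 10898 genes with a median of at least 5 CPM in the other double_het libraries, Meg3, Rian and Mirg were the only 3 more than 8-fold below that median in double_het replicate 3. Only 2 genes, H2-Ab1 and Mt2, were more than 8-fold above it. Of the 35 imprinted genes, Meg3, Rian and Mirg were below all other libraries there, Impact was above them (52.9 CPM against 32.7 to 50.5), and the rest were within their range. Klf14 was at 1.20 CPM in this library, within the range of the other double_het hearts.

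**Figure D3:**
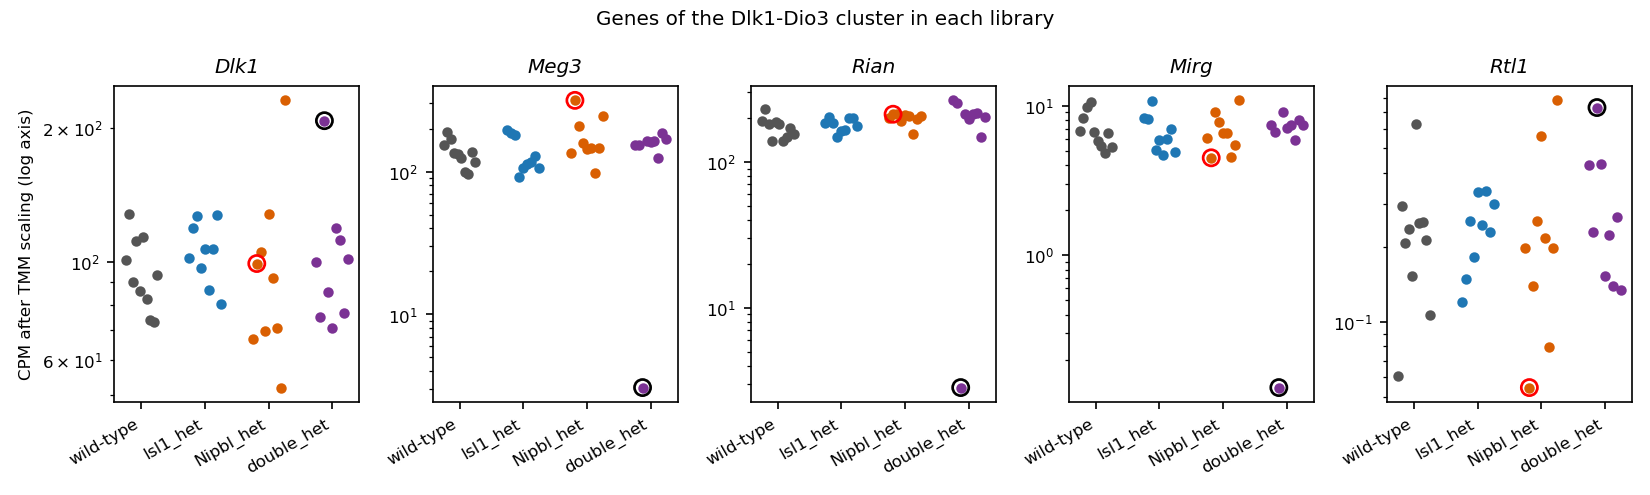
CPM on a log axis of 5 genes of the Dlk1-Dio3 cluster in every library, by genotype; the black ring marks double_het replicate 3 and the red ring the library labelled Nipbl_het replicate 2. Meg3, Rian and Mirg in double_het replicate 3 lie far below every other library, and Dlk1 and Rtl1 in it lie near the top.

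The tests of Meg3 and Rian changed with this library. With all libraries, the averaged log2 change with Nipbl loss was 0.45 (SE 0.24, adjusted p = 0.404) for Meg3 and 0.18 (SE 0.24, adjusted p = 0.800) for Rian, so neither passed. Without double_het replicate 3 it was 0.54 (SE 0.10, adjusted p = 0.00138) for Meg3 and 0.26 (SE 0.07, adjusted p = 0.0153) for Rian, with 3.84% of all genes passing. Without both double_het replicate 3 and the library labelled Nipbl_het replicate 2 the values were 0.48 (SE 0.08, adjusted p = 2.80e-04) and 0.26 (SE 0.07, adjusted p = 0.00995), with 6.98% of all genes passing. In those libraries 8 of the 35 imprinted genes passed in the averaged comparison: Klf14, Peg10, Sgce, Ppp1r9a, Meg3, Rian, Cdkn1c and Grb10. Mirg did not (0.28, SE 0.10, adjusted p = 0.106). Meg3 was at 95.7 to 191 CPM in wild-type hearts (median 134) and at 98.4 to 315 CPM in Nipbl_het hearts (median 146), so the groups overlapped. The 2 libraries were left out after their values had been seen.

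The library labelled Nipbl_het replicate 2 differed at many loci. It was above all other 36 libraries in 10 of the 35 tested genes and below all of them in 8. Ascl2, a trophoblast transcription factor, was at 8.30 CPM against 0.0337 to 1.00 CPM elsewhere, and Zrsr1 was at 38.2 CPM against 7.60 to 12.6 CPM. The neighbours Ndn, Magel2 and Peg12 on chromosome 7 were low: Ndn at 60.5 CPM against 120 to 195 CPM, Magel2 (a MAGE protein of ubiquitin ligase complexes) at 0.0819 CPM against 0.520 to 3.35 CPM, and Peg12 at 4.07 CPM against 12.9 to 21.0 CPM. Mkrn3, a neighbour that is not on the list, was not low (4.04 CPM against 2.04 to 4.48 CPM). Cdkn1c was at 1269 CPM against 2383 to 5454 CPM, and its neighbour Kcnq1, a potassium channel gene that is not on the list, at 32.6 CPM against 7.48 to 15.8 CPM. Over all genes with a median of at least 5 CPM, 31 were more than 8-fold below the median of the other Nipbl_het libraries and 55 more than 8-fold above, where the other 36 libraries had 0 to 36 below and 0 to 22 above. The 31 include the embryonic globin genes Hba-x, Hbb-y and Hbb-bh1, and the Y-linked genes Ddx3y, Eif2s3y, Kdm5d and Uty, which were also low in Nipbl_het replicates 1, 3, 4 and 8.

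The spread between libraries is given as the SD of log2 CPM left after genotype and set. Its median over the 35 genes was 0.267, beside 0.252 over all genes tested, and 20 of the 35 exceeded the median of all genes of like level. Without the library labelled Nipbl_het replicate 2 the medians were 0.193 and 0.198. Ascl2 (1.22), Rian (1.08) and Meg3 (1.02) had the widest spread of the listed genes. Without double_het replicate 3, the SD of Meg3 was 0.28, that of Rian 0.17 and that of Mirg 0.30, where it had been 0.97 with that library. Without the library labelled Nipbl_het replicate 2, that of Ascl2 was 0.82. Gnas (0.082), Copg2 (0.094) and Asb4 (0.107) had the narrowest spread. Among abundant genes H19 varied little (0.129), while Peg3 varied more (0.509, from 64.4 to 410 CPM).

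**Figure D4:**
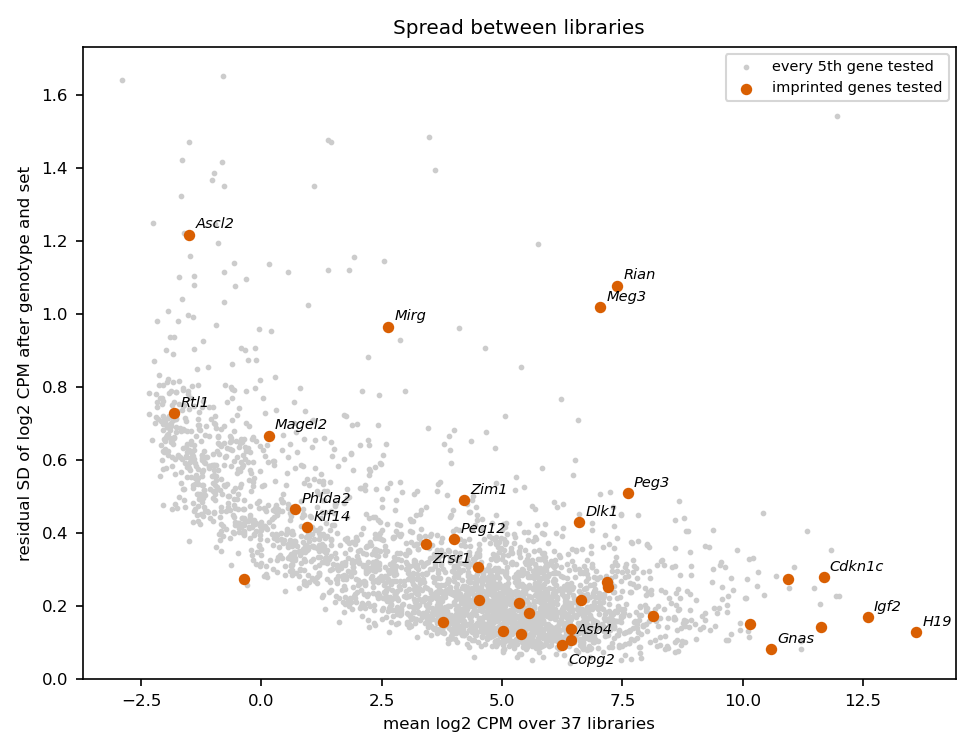
Residual SD of log2 CPM after genotype and set (vertical) against mean log2 CPM (horizontal) for the 35 tested imprinted genes (orange) and every 5th gene tested (grey). Rian, Meg3 and Mirg, at 1.08, 1.02 and 0.97, lie above most genes of like level, and Gnas, Copg2 and H19 lie low.

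Many of the imprinted genes varied with set number: 18 of 35 passed the test of the set term, where 38.2% of all genes did. Kcnq1ot1 (adjusted p = 1.23e-07) was at 40.3 CPM on average in the wild-type libraries of set 1, 29.0 in set 2, 23.1 in set 5 and 12.9 in set 6. Plagl1 (adjusted p = 1.50e-06) went the other way in wild-type hearts, with means of 233, 277, 281 and 396 CPM. H19 (adjusted p = 4.04e-05) averaged 14179, 14342, 11468 and 10422 CPM, and Peg3 (adjusted p = 3.35e-04) 145, 113, 196 and 331 CPM in the same order. Klf14, by contrast, averaged 3.08, 2.86, 3.05 and 3.05 CPM (adjusted p = 0.875). Sets hold 2 or 3 wild-type libraries each, and what differs between them (such as dissection or sequencing) is not given in the labels.

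**Figure D5:**
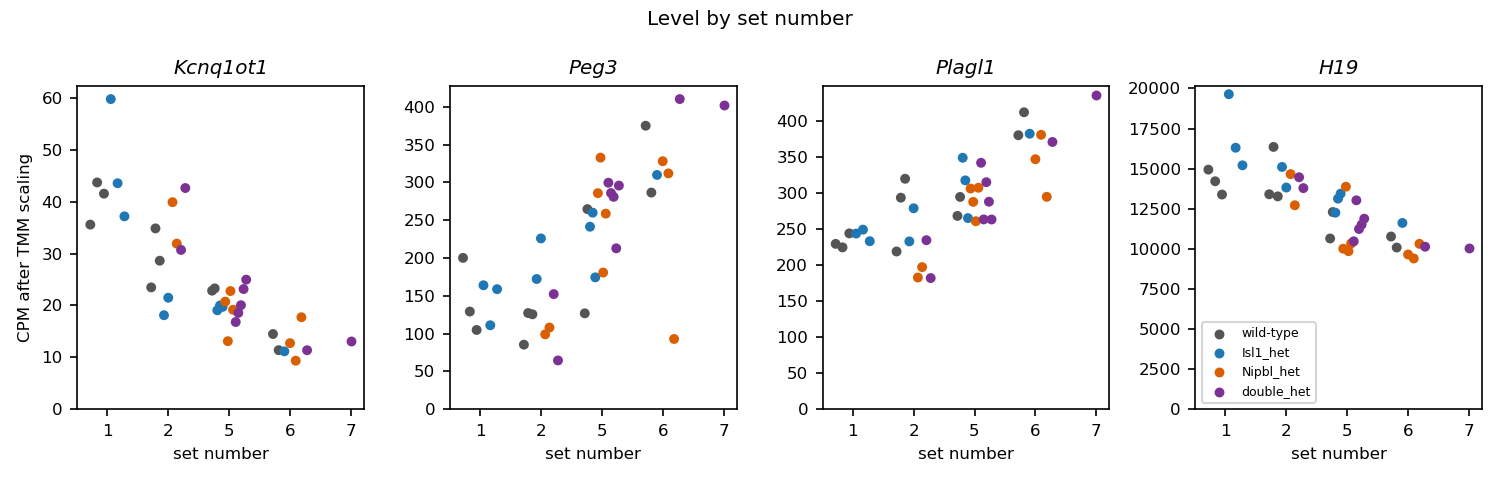
CPM of Kcnq1ot1, Peg3, Plagl1 and H19 in every library, by set number and coloured by genotype. Kcnq1ot1 and H19 are highest on average in set 1, and lowest in set 6 among the sets with several libraries, and Plagl1 is highest in sets 6 and 7; set 7 is a single library.

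Neighbouring genes were compared across the 37 libraries after removal of genotype and set, for 14 pairs fixed by position, with permutation tests adjusted over the pairs. Peg3 and Zim1, zinc-finger genes expressed from opposite copies, moved together: Pearson's r was 0.92 (adjusted p = 4.67e-05) and Spearman's rho 0.89 (adjusted p = 7.00e-05), from the smallest p the 100000 permutations can give. Without the 2 libraries farthest from the median of Peg3, r was 0.84, and within sets 1, 2, 5 and 6 it was 0.79, 0.90, 0.93 and 0.97. H19 and Igf2 had r = 0.59 (permutation adjusted p = 3.36e-04) and rho = 0.61 (adjusted p = 3.15e-04), and r = 0.59 without the 2 farthest libraries. Within sets r was 0.89, 0.92, 0.55 and -0.18. Those sets hold 6, 9, 14 and 7 libraries, so any within-set r is imprecise. In set 6, Isl1_het and double_het have 1 library each, which adds nothing once genotype is removed. The value there cannot decide whether the correlation holds. Cdkn1c and Kcnq1ot1, expressed from opposite copies, had r = 0.61 (permutation adjusted p = 1.75e-04), rho = 0.55 (adjusted p = 0.00154) and r = 0.52 without the 2 farthest libraries; within sets r was -0.0079, 0.42, 0.76 and 0.38.

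In 5 further pairs with a permutation adjusted p of r between 4.67e-05 and 0.00891, r fell to 0.37 or less without the 2 farthest libraries. Meg3 and Rian had r = 0.97 (rho 0.76, permutation adjusted p = 7.00e-05), and 0.37 without the library labelled Nipbl_het replicate 2 and double_het replicate 3. Within sets 1, 2, 5 and 6 their r was 0.67, 0.16, 0.98 and 0.99. Rian and Mirg had r = 0.95 (rho 0.63, permutation adjusted p = 1.87e-04), and 0.11 without double_het replicates 1 and 3, with -0.24, 0.13, 0.98 and 0.95 within sets. Dlk1 and Rtl1 had r = 0.54 (rho 0.29, permutation adjusted p = 0.172), and 0.22 without Nipbl_het replicate 9 and double_het replicate 3, with 0.55, 0.64, 0.51 and 0.46 within sets. Peg10 and Ppp1r9a had r = 0.58 (rho 0.37, permutation adjusted p = 0.0612), and 0.19 without the libraries labelled Nipbl_het replicates 2 and 8, with 0.88, -0.42, 0.58 and 0.80 within sets. Ndn and Magel2 had r = 0.61 (rho 0.26, permutation adjusted p = 0.181), and -0.17 without the same 2 libraries, with 0.24, -0.95, 0.77 and 0.29 within sets. The other 6 pairs had an adjusted p above 0.05, Igf2r and Airn among them (r = -0.31, adjusted p = 0.0857); Airn is the paternally expressed antisense RNA that silences Igf2r on its own copy. Without removal of set, r of Igf2r and Airn was -0.63 (permutation adjusted p = 1.63e-04). Mest and Copg2 had r = -0.23, and 0.50 (permutation adjusted p = 0.00369) without the library labelled Nipbl_het replicate 2. Dlk1 and Meg3 had r = -0.36, and 0.37 (permutation adjusted p = 0.0588) without double_het replicate 3. Both genes of a pair come from the same libraries and so share their cell makeup and depth, and the part of these in the correlations was not tested.

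Related gene lists were read against the 4.02% of all genes that passed. Of 40 tested genes from a list of other imprinted genes, 1 rose and 1 fell with Nipbl loss averaged over both Isl1 genotypes: Adam23, a cell adhesion gene, with a log2 change of 0.42 (SE 0.10, adjusted p = 0.0155), and Ddc, the aromatic amino acid decarboxylase gene, with one of -0.30 (SE 0.07, adjusted p = 0.00573). The median of that list was 0.0086. Of 24 tested genes that maintain imprints or belong to the CTCF and cohesin machinery, Nipbl itself fell (-0.80, SE 0.09, adjusted p = 4.35e-07) and Stag1, a cohesin subunit, rose (0.25, SE 0.07, adjusted p = 0.0311). Of 15 tested genes of the insulin-like growth factor axis, which include the imprinted genes Igf2, Igf2r and Grb10, 0 passed in the averaged comparison with edgeR, 2 had an unadjusted p under 0.05 (14.9% of all genes did) and DESeq2 called 1 (Grb10). Their median log2 change was 0.028.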

How the data were processed

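The deposited table holds raw counts of reads per gene, made by the authors from paired-end total RNA libraries (NEBNext Ultra II kit, per the labels' protocols). STAR, featureCounts and GRCm38 are named in the submitters' processing notes; their versions, the strand setting and the annotation are not given in the sources used here. All 37 libraries and 25239 genes were read, and 4273 genes had no count in any library.

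Counts were scaled with TMM in edgeR 4.0.16 (R 4.3.3). Genes passing filterByExpr by genotype (minimum count 10, minimum total 15) numbered 15046. A quasi-likelihood model with genotype and set number was fitted to all libraries, and p-values were adjusted over all genes within each of 8 comparisons. CPM values are counts scaled to library size, and log2 CPM used a prior count of 2. Exon lengths and positions come from the GENCODE M21 annotation (GRCm38). No within-group pair of libraries agreed within sampling noise (lowest chi-square per degree of freedom 7.19 over 153 pairs). The code was tested on simulated data. The labels number the embryos but name no litters, so p-values measure the spread between these libraries.

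Alternatives were another scaling, filters, no set term, a replicate block, surrogate variables (sva 3.50.0), DESeq2 1.42.0, Xist as a covariate, and leaving out each library or set. The imprinted genes and gene lists were chosen with earlier results of these data known. Full values are given for genes past 0.05 in any comparison, the highest gene of each cluster, and the 3 widest and 3 narrowest spreads; double_het replicate 3 and the library labelled Nipbl_het replicate 2 were singled out after their values were seen. The results of 1 list of cell type markers are not reported here.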

Additional observations from a re-analysis of the deposited data

Results flagged for a closer look

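In 16 of 140 groups of 9 or 10 libraries (35 genes in 4 genotypes), 1 library lay far from the others of its genotype by Dixon's criterion, where chance gives about 1 in 20 groups, or 7. Of these, 7 were in the library labelled Nipbl_het replicate 2 and 4 in double_het replicate 3.

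In the library labelled Nipbl_het replicate 2, Ascl2 (8.30 CPM), Zrsr1 (38.2 CPM) and Ppp1r9a (79.0 CPM) were far above the other Nipbl_het libraries, whose nearest values were 0.423, 11.2 and 50.8 CPM. Cdkn1c (1269 CPM), Ndn (60.5 CPM), Magel2 (0.0819 CPM) and Peg12 (4.07 CPM) were far below, with nearest values of 2425, 137, 0.791 and 15.9 CPM.

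In double_het replicate 3, Meg3 (3.08 CPM), Rian (2.84 CPM) and Mirg (0.130 CPM) were far below the nearest double_het values of 125, 147 and 5.90 CPM, and Dlk1 (208 CPM) was far above the nearest value of 119 CPM.

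The other 5 were spread over 4 libraries. In double_het replicate 8, Usp29 was low at 24.5 CPM (nearest 29.7) and Grb10 at 768 CPM (nearest 978). Slc22a18 was low in double_het replicate 2 (0.394 CPM, nearest 0.680), Magel2 was high in double_het replicate 6 (3.35 CPM, nearest 1.64), and Rian was low in Nipbl_het replicate 7 (156 CPM, nearest 189).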

How the results depend on the processing

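The fall of Klf14 averaged over both Isl1 genotypes passed the threshold in all 50 alternatives run (log2 change -1.35 to -1.18). Counts of imprinted genes past 0.05 moved more, and so did the share of all genes that passed, given as a percentage after each count. In Nipbl_het against wild-type (3 genes, 1.71%) the count was 1 with the replicate block (1.12%), without set 1 (0.777%) and without set 2 (0.207%), 7 with 2 surrogate variables (9.32%), and 5 without both libraries that stood apart (3.05%). With DESeq2 the count was 4, with Mest added (3.05%). In double_het against wild-type (1 gene, 2.60%) it was 3 without the set term (3.79%), 7 with surrogate variables (11.5%), 2 with DESeq2 (Klf14 and Grb10; 3.46%), 2 without set 6 (1.47%), and 5 without both (4.74%). In double_het against Isl1_het (1 gene, 0.957%) it was 4 with surrogate variables (5.01%), 2 without both (1.84%), and 0 with edgeR without set 2 (0.147%) or set 5 (0.0789%). In the averaged comparison (4 genes, 4.02%) it was 2 with the replicate block (Klf14 and Grb10; 3.81%), 2 without set 1 (3.40%), 1 without set 2 (1.01%), 9 with surrogate variables (14.2%), and 8 without both (6.98%). The causes were not tested.

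Leaving out 1 library at a time gave 1 to 5 genes in Nipbl_het against wild-type (1.11% to 2.72% of all genes), 1 to 4 in double_het against wild-type (1.62% to 5.57%), 1 to 1 in double_het against Isl1_het (0.484% to 2.40%) and 2 to 6 in the averaged comparison (2.89% to 6.93%), and 0 in Isl1_het against wild-type, in double_het against Nipbl_het, in the averaged Isl1 comparison and in the interaction. The Nipbl_het count was 1 (Klf14) without wild-type replicate 4, 5, 9 or 10, Isl1_het replicate 1, or Nipbl_het replicate 3, 5, 6 or 9 (1.11% to 1.83% of all genes), and 5 without Nipbl_het replicate 8 (2.11%). The averaged count was 2 (Klf14 and Sgce) without wild-type replicate 4 (3.81%) or Isl1_het replicate 6 (2.89%) or 7 (3.13%). The count in double_het against wild-type was 4 without the library labelled Nipbl_het replicate 2 (5.57%). For the pairs only 2 libraries were left out: 8 pairs passed 0.05 without the library labelled Nipbl_het replicate 2 and 6 without double_het replicate 3, and 9 passed without the set term. The median residual SD without the library labelled Nipbl_het replicate 2 was 0.193. The correlation of Ndn and Magel2 was -0.0805 without that library and 0.611 without double_het replicate 3. The averaged change of Mirg turned negative in 2 alternatives, at -0.0376 without the set term and -0.0628 without set 2. In 47 others it was 0.105 to 0.396.

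Replicate numbers in the labels did not pair the libraries: 17 of 54 same-numbered pairs had a correlation of deviations over 0.1, with a lowest value of -0.449 and a median of 0.0279, beside -0.0128 for other pairs. With the replicate block the averaged log2 changes of Peg10 (0.27, adjusted p = 0.141), Sgce (0.24, adjusted p = 0.0517) and Cdkn1c (-0.27, adjusted p = 0.146) did not pass with edgeR. Depth limits the low genes most: Klf14 rests on 15 to 149 counts per library. Dio3 and Snrpn were removed by the filter on low counts and were not among the imprinted genes past 0.05 with edgeR without that filter.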
